A study of Homo sapiens with 20 samples.

Results

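A set of 10 genes of apoptosis and pyroptosis was followed through RNA sequencing of 5 gastric cancer cell lines, each treated for 72 h with decitabine (DCB), a cytidine analog that inhibits DNA methyltransferases, or with its solvent DMSO. The genes are TNFRSF10C, DAPK1, CASP8, BCL2, HRK, BNIP3, PYCARD, CASP1, GSDME and CIDEC. They were chosen by symbol from the 60232 genes of the table, each matched a single row, and all 10 passed the filter on low values (a sum over the libraries above 10). YCCEL1 and SNU719 carry Epstein-Barr virus (EBV+) and belong to the CpG island methylator phenotype (CIMP+), a class of tumors with dense methylation of many promoters. AGS is CIMP+ and EBV-, and SNU16 and HGC27 are CIMP- and EBV-. Each of the 10 groups of line and treatment holds 2 libraries, 20 in all. Values are normalized counts, estimated per gene and scaled between libraries by the authors before deposit. A single read is worth between 0.754 and 1.21 normalized counts, depending on the library, so values near 1 rest on about 1 read.

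Apoptosis dismantles a cell from within and leaves its membrane closed, while pyroptosis opens the membrane and lets the contents out. Death receptors at the cell surface start the extrinsic route through the initiator caspase-8, and the BCL2 family decides at the mitochondrion whether the intrinsic route proceeds. In pyroptosis, sensors gather the adaptor ASC into an inflammasome, caspase-1 is activated there, and gasdermins form the pores. Methyl groups on the CG pairs of a promoter are a known means by which tumors keep such genes off, and DNA methyltransferase inhibitors remove these marks as cells divide. Methylation was not analysed here, so whether a low level in these lines goes with a methylated promoter was not tested. The levels alone showed that silence is not shared by the whole set in untreated cells. CASP8 was above 100 normalized counts in every DMSO library, and BCL2, DAPK1, PYCARD and BNIP3 each had at least 1 line with a mean above 100.

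The genes differ in how many CG pairs, the targets of methylation, surround their start sites. RefSeq promoter windows (GRCh38.p14, 250 bases before to 50 after a start) were given for 8 of the 10 genes, in 12 windows, and none was given for CASP1 and TNFRSF10C. The first window of BNIP3 held 48 CG pairs, a number reached by 2.0% of the 35116 windows of all genes. DAPK1 held 37 (reached by 11.3% of windows), GSDME 35 (14.1%), BCL2 31 (20.7%), HRK 25 (32.0%) and PYCARD 23 (35.8%). CASP8 held 6 (66.3%) and CIDEC 2 (89.0%), and the median of all windows was 14. Thus 6 of the 8 genes lay above the median and 2 below it. Stretches before the start that no GENCODE v44 exon of the same gene covers (for BNIP3 and CASP8, also outside the span of the gene in the table) are printed for 6 genes, to set 4 CG-rich starts beside 2 CG-poor ones, with every CG pair in capitals and the strand of the gene read 5′ to 3′. The stretches of PYCARD and BCL2 lie within exons of other transcripts of the gene and are not shown. The letters are reference sequence of GRCh38 and say nothing about which CG pairs carried a methyl group in these cells.
BNIP3, chr10:131982014-131982173, minus strand, 250 to 91 bases before the start: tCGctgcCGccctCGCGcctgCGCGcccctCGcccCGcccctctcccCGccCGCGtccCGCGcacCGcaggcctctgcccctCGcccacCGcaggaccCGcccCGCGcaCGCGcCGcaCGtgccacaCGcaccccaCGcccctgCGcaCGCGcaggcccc
DAPK1, chr9:87497617-87497680, plus strand, 250 to 187 bases before the start: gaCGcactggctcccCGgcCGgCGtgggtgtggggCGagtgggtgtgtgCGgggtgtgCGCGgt
GSDME, chr7:24757476-24757706, minus strand, 242 to 12 bases before the start: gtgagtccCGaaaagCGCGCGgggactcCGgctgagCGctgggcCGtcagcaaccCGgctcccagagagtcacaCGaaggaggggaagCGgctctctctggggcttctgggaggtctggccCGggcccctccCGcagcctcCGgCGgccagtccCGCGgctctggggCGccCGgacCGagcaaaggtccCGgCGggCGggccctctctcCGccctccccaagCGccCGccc
HRK, chr12:116881442-116881691, minus strand, 250 to 1 bases before the start: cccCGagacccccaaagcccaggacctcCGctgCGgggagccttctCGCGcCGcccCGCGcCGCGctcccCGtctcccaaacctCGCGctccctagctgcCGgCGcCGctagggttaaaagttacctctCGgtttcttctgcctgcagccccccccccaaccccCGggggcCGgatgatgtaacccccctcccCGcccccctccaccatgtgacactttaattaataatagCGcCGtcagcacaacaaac
CIDEC, chr3:9880256-9880503, minus strand, 250 to 3 bases before the start: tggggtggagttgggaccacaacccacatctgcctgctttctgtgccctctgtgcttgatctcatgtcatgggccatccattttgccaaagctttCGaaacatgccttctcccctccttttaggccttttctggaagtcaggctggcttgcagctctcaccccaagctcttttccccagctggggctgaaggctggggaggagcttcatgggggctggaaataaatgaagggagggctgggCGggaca
CASP8, chr2:201233213-201233442, plus strand, 250 to 21 bases before the start: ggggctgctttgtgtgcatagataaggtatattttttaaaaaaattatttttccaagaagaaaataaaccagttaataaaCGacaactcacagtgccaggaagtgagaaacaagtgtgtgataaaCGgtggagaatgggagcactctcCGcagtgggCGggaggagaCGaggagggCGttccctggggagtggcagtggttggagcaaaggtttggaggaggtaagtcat

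**Figure D1:**
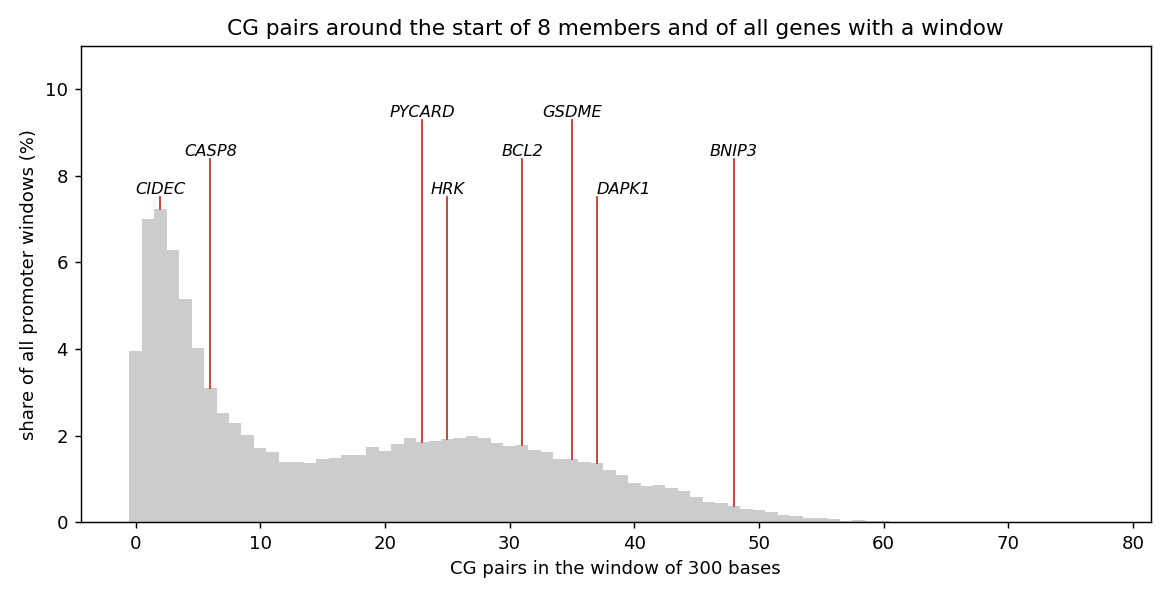
Number of CG pairs in the first RefSeq window of 300 bases of 8 of the genes (red lines) over the distribution of 35116 windows of all genes (grey bars, share in percent). BNIP3 lies far to the right with 48 pairs, and CIDEC (2) and CASP8 (6) lie in the peak of CG-poor windows on the left.

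The libraries were alike in size. Their values summed to 7764408 to 9321014, the estimated depth was 7101727 to 10731397 reads (median 8900774.5 in DMSO and 8765673.5 in DCB libraries), and the 2 libraries of a group had correlations of 0.969 to 0.980 across genes (genes are not independent). Nothing in the labels or the study says that the libraries of a group were grown as separate cultures, so the p-values reflect the spread among these libraries only, which may be technical. The summed epithelial markers reached 37071 to 109262 normalized counts in the libraries of 4 lines but 260 to 830 in HGC27, where summed mesenchymal markers were 41369 to 86001, against 7.41 to 2910 elsewhere. These sums also moved with DCB. In HGC27 the epithelial sum was 260 and 288 in the DMSO libraries and 685 and 830 in the DCB libraries (5 of 7 markers rose), and the mesenchymal sum was 84295 and 86001 in DMSO and 41369 and 42450 in DCB. In AGS the mesenchymal sum was 348 and 355 in DMSO and 2894 and 2910 in DCB. Over the 5 lines, 1 of 7 epithelial, 6 of 8 mesenchymal, 4 of 9 leukocyte and 2 of 3 endothelial markers tested rose and none fell. The part of these moves in the results was not tested. The leukocyte list was carried by LYZ, which mucous cells of the stomach also make, while CD2 was at 0 in every group and the highest mean of PTPRC was 6.87. The endothelial list summed to between 0 and 44.9. All 15 reference genes were above 0 in every library, with a lowest value of 65.4. Their summed level was lower with DCB in every line, and 3 of the 15 rose and 6 fell over the 5 lines.

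To ask which of these genes respond to the drug, DCB was compared with DMSO in each line and over the 5 lines. The test was limma on log2(normalized count + 1), fitted over all 27350 genes tested. Methyltransferase activity was not measured. A gene is said to have risen or fallen where its Benjamini-Hochberg adjusted p over all genes was below 0.05. Over the 5 lines, CIDEC, GSDME, PYCARD, BNIP3, DAPK1 and TNFRSF10C rose and none of the 10 genes fell, while CASP8, CASP1, BCL2 and HRK did not pass the test. This is 6 of 10 genes higher, where 17.9% of all genes tested rose, and 0 of 10 lower, where 6.94% fell. Of them, 5 also passed a log2 fold change of 2, as 3.4% of all genes did. In bulk RNA, fewer cells expressing a gene and less RNA per cell cannot be told apart. AGS had the most calls, with 6 of 10 higher (background 18.5%) and none lower (9.13%). In YCCEL1, 4 rose (14.6%) and 1 fell (6.93%). In HGC27, 3 rose (14.7%) and none fell (9.03%), and in SNU719, 2 rose (13.5%) and none fell (7.64%). In SNU16, only CIDEC rose (background 4.5%) and none fell (2.34%). A log2 fold change of 2 was passed as well by all 6 genes in AGS (9.02% of all genes), 3 in YCCEL1 (7.99%), 3 in HGC27 (4.95%), 2 in SNU719 (6.38%) and 1 in SNU16 (2.31%). The median log2 fold change of the 10 genes was 3.31 in AGS (all genes tested, 0.12), 1.52 in HGC27 (0.04), 1.27 in YCCEL1 (0.09), 0.90 in SNU719 (0.11) and 0.00 in SNU16 (0.01). Medians and the counts past 2 include genes that were at 0 in DMSO, whose fitted fold depends on the added count of 1.

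Both DCB libraries lay above both DMSO libraries for 7 of the 10 genes in AGS (34.8% of all genes tested), 6 in HGC27 (30.3%), 6 in YCCEL1 (32.8%), 6 in SNU719 (32.6%) and 5 in SNU16 (24.7%). They lay below for 2 genes in SNU16 (19.3%), 1 in HGC27 (24.6%), 1 in YCCEL1 (21.2%), 1 in SNU719 (23.1%) and none in AGS (21.9%). The over-line calls treat the 2 libraries of each line as replicates. With each line taken as 1 replicate, only CIDEC passed over the 5 lines, and the adjusted p of the other 5 ran from 0.0629 for GSDME to 0.201 for TNFRSF10C. With only the 4 libraries of a line in the fit, 7 of the calls in single lines were lost (PYCARD, TNFRSF10C and BCL2 in YCCEL1, CIDEC in AGS, SNU16 and HGC27, and BNIP3 in HGC27), with adjusted p from 0.0592 to 0.183. PYCARD in SNU719 was gained in that fit (0.39, adjusted p = 0.0498).

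**Figure D2:**
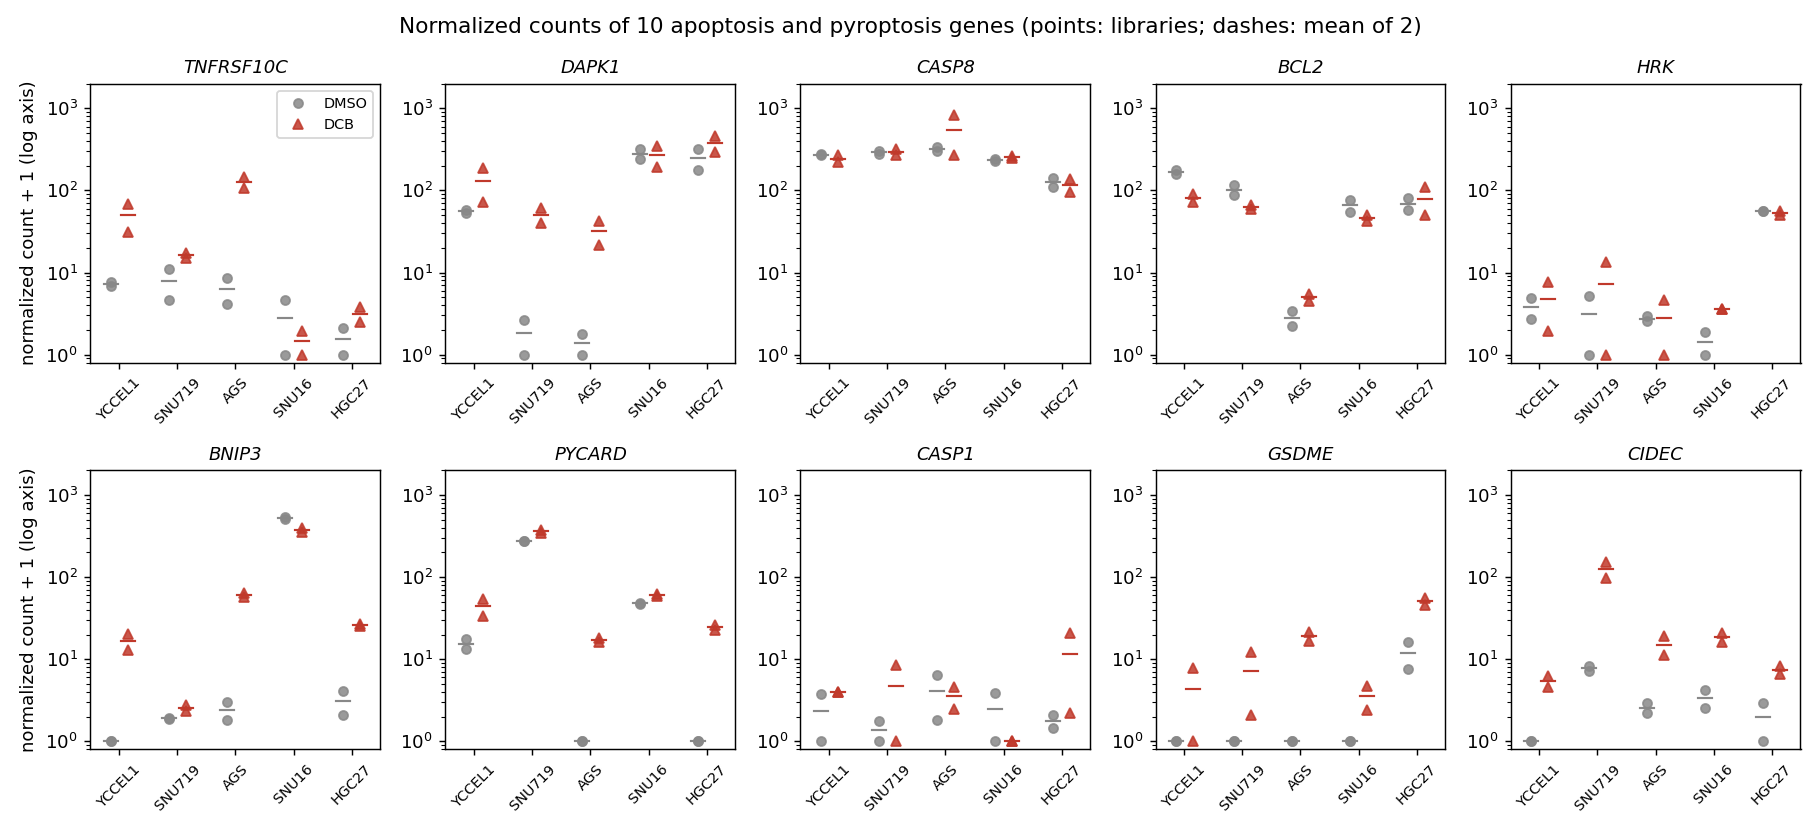
Normalized counts plus 1 of the 10 genes (log axis) in every library, with grey circles for DMSO, red triangles for DCB, a dash for the mean of 2 libraries, and the lines along the horizontal axis. CIDEC lies higher with DCB in all 5 lines. BNIP3, PYCARD and DAPK1 lie above the floor with DCB where they start at or near it, apart from BNIP3 in SNU719. They stay nearer their DMSO level in the lines where they start highest. In YCCEL1, DAPK1 and PYCARD start between these levels and lie higher with DCB. CASP8 lies near the same level in most groups.

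TNFRSF10C (chromosome 8 of GRCh38, 23102921 to 23117445, plus strand) encodes a receptor that binds the death ligand TRAIL but lacks a death domain. In DMSO its level was low in every library: 5.83 and 6.56 normalized counts in YCCEL1, 10.0 and 3.63 in SNU719, 7.57 and 3.17 in AGS, 3.58 and 0 in SNU16, and 1.09 and 0 in HGC27. With DCB the libraries reached 30.2 and 66.8 in YCCEL1, 16.3 and 14.2 in SNU719, and 147 and 106 in AGS, but 0.932 and 0 in SNU16 and 2.78 and 1.47 in HGC27. The DCB libraries of the 3 CIMP+ lines and of HGC27 lay above their DMSO libraries, and those of SNU16 overlapped them. The gene rose in AGS by 4.39 on the log2 scale (standard error 0.714, adjusted p = 0.000368) and in YCCEL1 by 2.68 (0.714, adjusted p = 0.0154). In SNU719 the value was 1.19 (adjusted p = 0.294). The call in YCCEL1 was lost without either DMSO library (adjusted p = 0.0765 and 0.0617) or without the second DCB library (adjusted p = 0.128). The reads of this gene are uncertain, because TNFRSF10D and other receptors of the cluster are close in sequence and how shared reads were counted is not given in the sources used here. In GENCODE v44, 2 further annotated genes also overlap TNFRSF10C on its own strand.

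The other TRAIL receptors were measured beside it. TNFRSF10A and TNFRSF10B, the 2 receptors that carry the death signal, were expressed in all lines in DMSO, with means of 41.97 to 289.2 and 475.6 to 3179 normalized counts. Neither passed the test over the 5 lines (log2 fold changes of 0.43 and -0.12, adjusted p = 0.122 and 0.279). In single lines, TNFRSF10A rose in AGS (0.96, adjusted p = 0.0351) and in HGC27 (1.31, adjusted p = 0.00744), and TNFRSF10B fell in YCCEL1 (-0.57, adjusted p = 0.000442), from a mean of 3179 to 2135. TNFRSF10D, the second decoy, was listed at 0 in DMSO in HGC27 and averaged 21.4 there with DCB (adjusted p = 7e-10), while in the other 4 lines its log2 fold changes were 0.28 or less and none was called.

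DAPK1 (chromosome 9, 87497228 to 87708634, plus strand) encodes death-associated protein kinase 1, a calcium/calmodulin-regulated kinase that promotes cell death. Untreated SNU16 (240 and 321 normalized counts) and HGC27 (176 and 317) were highest and did not differ beyond their spread (adjusted p = 0.82). YCCEL1 followed at 56.1 and 52.8, below HGC27 (adjusted p = 0.0064), while SNU719 (0 and 1.64) and AGS (0 and 0.784) were at or near the level of 1 read. With DCB the libraries of SNU719 read 59.9 and 39.1 and those of AGS 20.5 and 41.6. The log2 fold changes were 4.92 and 4.50 (standard error 0.566 for both, adjusted p = 2.57e-05 and 3.99e-05). In YCCEL1 the DCB libraries, 71.9 and 184, were far apart and lay above both DMSO libraries. The difference did not pass (1.07, adjusted p = 0.221), in a fit where all groups share a common estimate of the spread. SNU16 (191 and 344) and HGC27 (292 and 460) overlapped their own DMSO libraries (adjusted p = 1 and 0.502). Over the 5 lines the log2 fold change was 2.20 (standard error 0.538, adjusted p = 0.0059). The CG-rich stretch printed above lies inside the gene as annotated in GENCODE v44, upstream of the RefSeq start. An intronic transcript, DAPK1-IT1, and a further annotated gene overlap DAPK1 on its own strand.

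The other kinases of the family were expressed in every group. STK17A, a related kinase named for its part in apoptosis, rose over the 5 lines by 0.50 (adjusted p = 0.00892). DAPK3 did not pass over the 5 lines (0.22, adjusted p = 0.231), but it rose in the 3 CIMP+ lines, by 0.40 in YCCEL1, 0.43 in SNU719 and 0.89 in AGS. DAPK2 fell in YCCEL1 by 1.72 on the log2 scale, from a mean of 28.3 to 8.75 (adjusted p = 0.036). Of the 5 genes of the DAPK list, DAPK1 included, 2 rose over the 5 lines (17.9% of all genes tested) and none fell (6.94%).

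The initiator caspase of the death receptors was expressed throughout. CASP8 (chromosome 2, 201233443 to 201287711, plus strand) starts the extrinsic route once it is recruited by a death receptor. Its DMSO libraries were at 302 and 336 normalized counts in AGS, 278 and 302 in SNU719, 275 and 265 in YCCEL1, 230 and 242 in SNU16, and 141 and 110 in HGC27. Neighbors in this order did not differ beyond their spread, except SNU16 and HGC27 (adjusted p = 0.049). With DCB the libraries were at 267 and 218 in YCCEL1, 266 and 322 in SNU719, 262 and 249 in SNU16, 136 and 94.0 in HGC27, and 266 and 824 in AGS. No line passed the test, and the log2 fold changes outside AGS lay between -0.16 and 0.12. The value in AGS, 0.55 (adjusted p = 0.302), was decided by 1 library. Without the first DCB library it was 1.37 (adjusted p = 0.000767), and without the second, which holds the value of 824, it was -0.26 (adjusted p = 0.493). FLACC1 on the opposite strand and a further annotated gene overlap CASP8 in GENCODE v44, whose end for the gene is not that of the table. CASP10, the related initiator caspase, was not called over the 5 lines (0.30, adjusted p = 0.425).

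Of 18 genes of the TRAIL and FAS list, all tested, 6 rose over the 5 lines (17.9% of all genes) and none fell (6.94%). The median of the list was 0.19 beside 0.15 for all genes. TNFSF15, a death-receptor ligand, rose by 0.81 (adjusted p = 0.0142), with its largest change in SNU719, from a mean of 111.4 to 408.9. TNFRSF21, a death-domain receptor, rose by 0.37 (adjusted p = 0.0142).

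The mitochondrial members of the set did not move together. BCL2 (chromosome 18, 63123346 to 63320128, minus strand) restrains BAX and BAK1 and so blocks apoptosis. In DMSO its libraries were at 175 and 159 normalized counts in YCCEL1, 116 and 86.4 in SNU719, 56.9 and 79.5 in HGC27, 53.8 and 76.2 in SNU16, and 2.40 and 1.22 in AGS. No neighbors in this order differed beyond their spread until AGS, which was lower than SNU16 (adjusted p = 1.2e-07). With DCB the libraries were at 89.3 and 71.1 in YCCEL1, 57.9 and 64.9 in SNU719, 49.1 and 108 in HGC27, 49.4 and 41.9 in SNU16, and 4.41 and 3.52 in AGS. DCB libraries lay below DMSO libraries in YCCEL1, SNU719 and SNU16, above them in AGS, and on either side of them in HGC27. Only the difference in YCCEL1 passed, a fall by 1.06 on the log2 scale (standard error 0.355, adjusted p = 0.0488), which lies just under the threshold and was lost on leaving out any 1 of 16 of the 20 libraries (adjusted p up to 0.218). Over the 5 lines the value was -0.26 (adjusted p = 0.439). An overlapping annotated gene lies on the same strand.

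HRK (chromosome 12, 116856144 to 116881441, minus strand) is a BH3-only protein that binds BCL2 and promotes apoptosis. It was expressed in HGC27, at 55.1 and 54.7 normalized counts in DMSO and 49.1 and 54.6 in DCB. In the other 4 lines its libraries ranged from 0 to 4.18 in DMSO and from 0 to 12.3 in DCB. HGC27 was above YCCEL1, the next line in the untreated order (adjusted p = 0.0078), and the other neighbors did not differ beyond their spread. No response passed the test, with adjusted p from 0.594 in SNU16 to 1 in YCCEL1 and HGC27. HRK thus had a CG-rich start, as the sequence above shows, with no detectable response in the 4 lines where it was low. Its spread between libraries of a group was wide (standard error 1.10 on the log2 scale), so a response of moderate size could not be detected.

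BNIP3 (chromosome 10, 131966455 to 131982013, minus strand) is a mitochondrial protein of the BH3-only kind, induced by hypoxia, with parts in cell death and in the removal of mitochondria. Its untreated levels split the lines sharply. SNU16 was at 507 and 543 normalized counts, while HGC27 (3.10 and 1.08), AGS (0.799 and 2.01), SNU719 (0.949 and 0.862) and YCCEL1 (0 and 0) were at a few reads at most. With DCB the libraries rose to 56.1 and 63.8 in AGS, 25.6 and 24.4 in HGC27, and 19.5 and 11.8 in YCCEL1. The log2 fold changes were 4.71 in AGS (adjusted p = 6.32e-07) and 3.15 in HGC27 (adjusted p = 3.23e-05), with a standard error of 0.381 for both. In YCCEL1 the gene was listed at 0 in DMSO, so no fold is given (adjusted p = 4.1e-06). SNU719 kept a low level with DCB, 1.79 and 1.35 (0.43, adjusted p = 0.507), and in SNU16 the DCB libraries, 399 and 357, lay below the DMSO libraries without passing the test (-0.47, adjusted p = 0.603). The highest DCB level among the responding lines was still far below that of untreated SNU16. In GENCODE v44, antisense genes overlap BNIP3, and the gene's span is not that of the table, so its reads and theirs may not be told apart.

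BNIP3L, the closest relative, was expressed in every group, with DMSO means of 259.8 to 536.7, and did not pass over the 5 lines (0.17, adjusted p = 0.254). Of the 8 genes of the BNIP3 and mitophagy list, 3 rose, BNIP3 included (17.9% of all genes tested). BNIP1 alone fell (6.94% of all genes), by 0.33 (adjusted p = 0.0248). PINK1, a kinase that marks damaged mitochondria for removal, rose by 0.82 (adjusted p = 0.000166), and BNIP5 rose as well (adjusted p = 0.00172). Among 12 BH3-only proteins and effectors, 2 rose (17.9% of all genes tested) and none fell (6.94%). These were BAX (0.38, adjusted p = 0.00604) and BAK1 (0.31, adjusted p = 0.026), the effectors that permeabilize the mitochondrion. Of 6 guardians, BCL2A1 rose (adjusted p = 0.0361), listed at 0 in DMSO in all lines and above 0 with DCB in YCCEL1 and SNU719 alone, and BCL2L2 fell by 0.42 (adjusted p = 0.00182). BCL2L1 and MCL1, also guardians, did not pass over the 5 lines (0.16 and 0.03, adjusted p = 0.246 and 0.835), but single lines changed in opposite directions. BCL2L1 rose in SNU719 (0.48, adjusted p = 1.05e-05) and AGS (0.67, adjusted p = 2.7e-07) and fell in HGC27 (-0.38, adjusted p = 7.49e-05). MCL1 rose in SNU719 (0.45, adjusted p = 2.09e-05) and fell in AGS (-0.27, adjusted p = 0.00114) and HGC27 (-0.20, adjusted p = 0.0117).

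**Figure D3:**
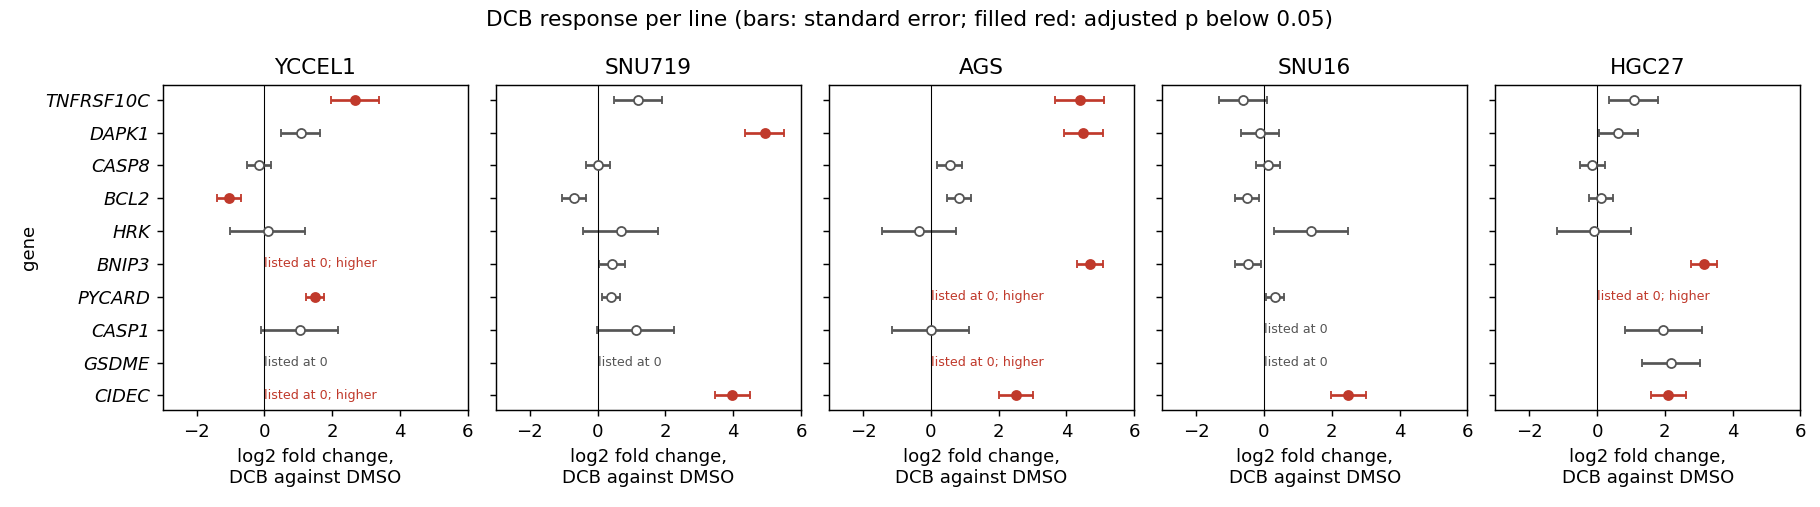
Log2 fold change of DCB against DMSO with its standard error (horizontal axis) for the 10 genes in each line, on normalized count + 1, with filled red points at an adjusted p below 0.05. No fold is drawn where all libraries of a group were listed at 0, and the words stand in its place, with "higher" where the gene rose. AGS shows 6 genes that rose, and SNU16 only CIDEC.

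PYCARD (chromosome 16, 31201486 to 31203450, minus strand) encodes ASC, the adaptor that links inflammasome sensors to caspase-1. In DMSO it was at 273 and 276 normalized counts in SNU719, 46.3 and 47.8 in SNU16 and 16.7 and 12.4 in YCCEL1, and it was listed at 0 in all 4 libraries of AGS and HGC27. Each step in this order was beyond the spread (adjusted p = 3.9e-06, 0.00021 and 4.7e-08), apart from AGS and HGC27, both at 0. With DCB it reached 17.0 and 15.3 in AGS, 25.4 and 21.8 in HGC27 and 53.9 and 33.0 in YCCEL1. It therefore rose in AGS (adjusted p = 8.69e-08), in HGC27 (adjusted p = 2.39e-08) and, by 1.49 on the log2 scale (standard error 0.272), in YCCEL1 (adjusted p = 0.00123). In SNU719 (374 and 347) and SNU16 (60.7 and 57.3) the DCB libraries also lay above the DMSO libraries, by 0.39 and 0.32, but did not pass (adjusted p = 0.373 and 0.63). PYCARD-AS1 overlaps the gene on the opposite strand, and the sources disagree on whether the libraries keep the strand.

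CASP1 (chromosome 11, 105025443 to 105035250, minus strand), the caspase that the inflammasome activates, was low in all lines. Its 20 libraries ranged from 0 to 19.7 normalized counts, with 6 at 0. The highest value stood in 1 DCB library of HGC27, whose partner read 1.23. No line passed the test (adjusted p from 0.259 in HGC27 to 1 in AGS), and none of the 10 pairs of untreated lines passed. The standard error was 1.13 on the log2 scale, so only large changes of this gene could be detected at this spread. CASP4, a related caspase that senses bacterial lipopolysaccharide, was expressed in all lines and fell over the 5 lines by 0.52 (adjusted p = 0.0252), with its largest fall in AGS, from a mean of 328.0 to 109.4. CASP5 fell in YCCEL1 by 1.48 (adjusted p = 0.0182), from 19.01 to 6.16.

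Of the 16 genes tested from the inflammasome list, 4 rose over the 5 lines, PYCARD included (17.9% of all genes), and 2 fell (6.94%). The median of the list was 0.71 beside 0.15 for all genes. The sensors NLRC4 (adjusted p = 0.00191) and NLRP2 (2.44, adjusted p = 0.00284) rose. NLRP2 went from a mean of 9.31 to 465.2 in AGS and from 0.861 to 29.3 in SNU16. NAIP, a sensor partner of NLRC4, fell by 0.45 (adjusted p = 0.0116).

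GSDME (chromosome 7, 24698355 to 24757940, minus strand) encodes a gasdermin that is cleaved during apoptosis and then forms pores. It was listed at 0 in all 8 DMSO libraries of YCCEL1, SNU719, AGS and SNU16, and at 6.60 and 15.3 normalized counts in HGC27, which was higher than AGS (adjusted p = 0.0039). With DCB it was at 20.3 and 15.7 in AGS, 44.8 and 55.0 in HGC27, 11.1 and 1.09 in SNU719, 6.77 and 0 in YCCEL1, and 3.74 and 1.42 in SNU16. All but 1 of the 10 DCB libraries were thus above the highest DMSO library of their line, the exception being 1 library of YCCEL1 at 0. The gene rose in AGS (adjusted p = 0.00205) and over the 5 lines (adjusted p = 0.000446). The other lines did not pass alone, with adjusted p of 0.0733 in SNU719, 0.0869 in HGC27, where the log2 fold change was 2.18 (standard error 0.862), 0.273 in YCCEL1 and 0.301 in SNU16. A count of 5 added in place of 1 gave 1.83 in HGC27 and passed (adjusted p = 0.00593). The GSDME stretch printed above lies inside the gene as annotated in GENCODE v44, upstream of the RefSeq start.

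Of 9 gasdermins and pyroptosis products, GSDME and GSDMA rose over the 5 lines (17.9% of all genes tested) and none fell (6.94%). GSDMA, a gasdermin of skin and upper gut, rose by 1.96 (adjusted p = 0.000997), with means going from 3.29 to 19.1 in YCCEL1, 5.45 to 58.1 in SNU719 and 12.1 to 100.2 in AGS. GSDMD, the gasdermin that caspase-1 cleaves, averaged 176.2 to 611.7 in DMSO in the 4 epithelial lines and 5.36 in HGC27, and did not pass (-0.09, adjusted p = 0.891). Neither did GSDMB (0.25, adjusted p = 0.241) nor GSDMC (0.91, adjusted p = 0.069) over the 5 lines. In single lines, GSDMB rose in YCCEL1 (0.98, adjusted p = 0.00275) and SNU16 (0.75, adjusted p = 0.0373), and GSDMC rose in AGS (2.49, adjusted p = 0.0159). RIPK3, the kinase that starts necroptosis, rose (adjusted p = 0.00602), the only one of 4 genes of that list to pass. Of all genes tested, 17.9% rose.

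CIDEC (chromosome 3, 9866711 to 9880255, minus strand) rose in every line. It belongs to the CIDE family, which resembles the apoptotic DNA fragmentation factors, and is best known for enlarging lipid droplets in fat and liver cells. In DMSO its libraries were at 7.24 and 6.27 normalized counts in SNU719, 1.54 and 3.23 in SNU16, 1.94 and 1.22 in AGS, 0 and 1.96 in HGC27 and 0 and 0 in YCCEL1. With DCB they were at 153 and 95.4 in SNU719, 15.1 and 20.1 in SNU16, 10.3 and 17.9 in AGS, 7.17 and 5.67 in HGC27, and 3.60 and 5.19 in YCCEL1. Both DCB libraries lay above both DMSO libraries in all 5 lines. The log2 fold change was 3.98 in SNU719 (adjusted p = 6.71e-05), 2.52 in AGS (adjusted p = 0.00193), 2.49 in SNU16 (adjusted p = 0.00867) and 2.10 in HGC27 (adjusted p = 0.00763), each with a standard error of 0.508, and in YCCEL1, at 0 in DMSO, the adjusted p was 0.00342. The call in SNU16 was lost without its first DMSO library (adjusted p = 0.0825) or its second DCB library (0.0683), and that in HGC27 without its first DMSO library, where the value fell to 1.32 (adjusted p = 0.0963), or its first DCB library (adjusted p = 0.0541). Over the 5 lines the adjusted p was 2.3e-06. Its start is the poorest in CG pairs of the 8 windows above.

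Other genes of the CIDE list moved too. Of 6 tested, 3 rose over the 5 lines (17.9% of all genes tested) and none fell (6.94%). PLIN2, a coat protein of lipid droplets, rose by 3.01 (adjusted p = 0.000116), with means going from 5.89 to 48.6 in YCCEL1, 11.2 to 87.3 in SNU719, 1.54 to 50.02 in AGS and 3.27 to 61.3 in HGC27, and from 438.5 to 557.4 in SNU16, where it did not pass. CIDEB, a CIDE protein of the liver and gut, rose by 1.82 (adjusted p = 0.00791). CIDEA was too low to be tested, with group means of at most 2.44. The list sets PLIN2 beside CIDE and DNA fragmentation factor proteins and was chosen with earlier results of these data known. A theme among its genes that rose was not tested.

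**Figure D4:**
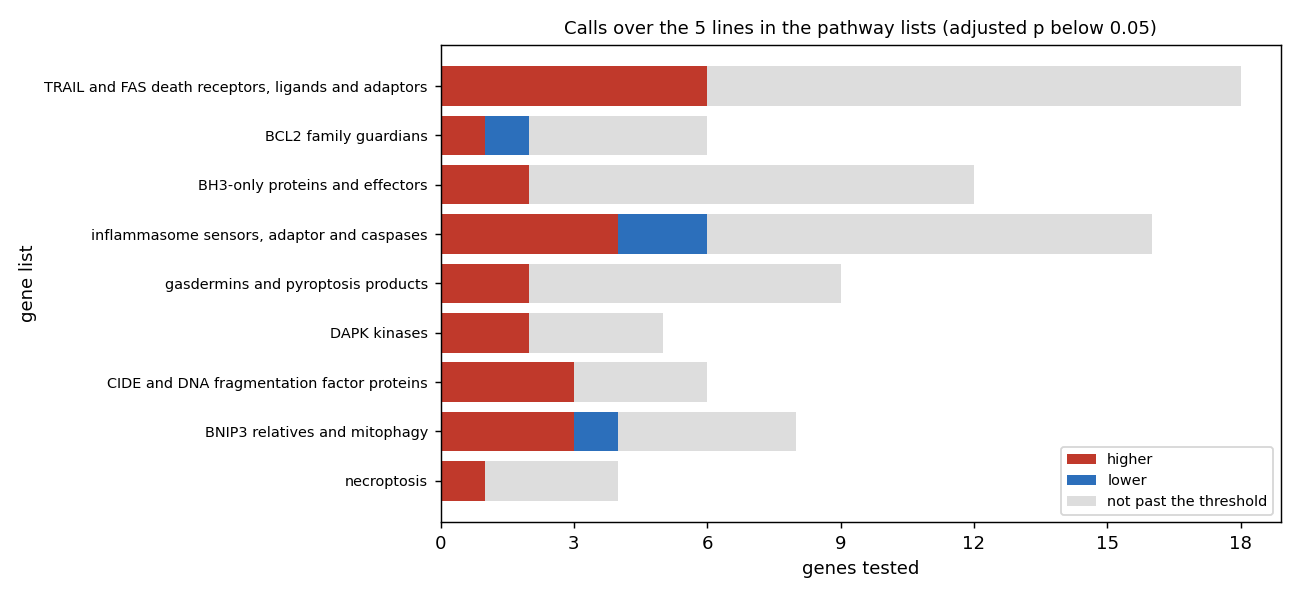
Number of genes tested in each of 9 pathway lists (horizontal axis), split into those higher (red), lower (blue) and not past the threshold (grey) over the 5 lines at an adjusted p below 0.05. The members are counted within their lists, and the most calls higher, 6 of 18, are in the death receptor list. Over all genes tested, 17.9% rose and 6.94% fell.

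Across all pathway lists there were 87 tested genes other than the 10. Of these, 20 rose and 4 fell over the 5 lines, with a median log2 fold change of 0.19 beside 0.15 for all genes tested. These counts are to be read against the 17.9% of all genes that rose and the 6.94% that fell. In single lines, 23 rose and 10 fell in AGS (background 18.5% and 9.13%), 21 and 9 in HGC27 (14.7% and 9.03%), 15 and 7 in YCCEL1 (14.6% and 6.93%), 20 and 2 in SNU719 (13.5% and 7.64%), and 7 and 0 in SNU16 (4.5% and 2.34%).

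To ask whether the response goes with the methylator phenotype, the mean DCB effect of the 3 CIMP+ lines was compared with that of the 2 CIMP- lines. The response was larger in CIMP+ lines for 3 of the 10 genes (background 12.8%) and smaller for none (8.94%). A difference above 2 was passed by 2 of them (3.68%). DAPK1 had the largest, 3.24 on the log2 scale (standard error 0.516, adjusted p = 0.000472). For TNFRSF10C the difference was 2.52 (standard error 0.652, adjusted p = 0.0128), which missed the threshold with an added count of 0.5 (adjusted p = 0.0539). BNIP3 passed as well (adjusted p = 0.00282). Calls in single lines did not follow the phenotype in full for any of these genes. BNIP3 rose in YCCEL1, AGS and the CIMP- line HGC27, and not in SNU719 or SNU16. DAPK1 rose in SNU719 and AGS, but was not called in YCCEL1 (1.07, adjusted p = 0.221). TNFRSF10C rose in YCCEL1 and AGS. Its value in SNU719 (1.19, adjusted p = 0.294) was near that in HGC27 (1.08, adjusted p = 0.334), and neither was called. With lines as the replicates, none of the 3 passed (adjusted p = 0.592, 0.626 and 0.771). HGC27 is mesenchymal by its markers and SNU16 epithelial, so with 3 lines against 2 the phenotype cannot be told apart from other properties of the lines.

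Before treatment, 7 of the 10 genes differed between CIMP+ and CIMP- lines, in both directions. Lower in CIMP+ lines were DAPK1 (-5.70, adjusted p = 9.8e-09), BNIP3 (adjusted p = 1.52e-09), GSDME (adjusted p = 0.0179) and BCL2 (-0.89, adjusted p = 0.00494), 4 of 10 where 28.5% of all genes were lower, and 2 of them by more than 2 (8.39%). Higher in CIMP+ lines were TNFRSF10C (1.94, adjusted p = 0.00279), PYCARD (adjusted p = 3.94e-05) and CASP8 (0.77, adjusted p = 0.0129), 3 of 10 where 21.4% were higher. Single lines carried several of these. BNIP3 was high in SNU16 alone, GSDME in HGC27 alone, BCL2 was near 0 only in AGS, and PYCARD was at 0 in 1 line of each class. The differences of GSDME and CASP8 were lost without the second DMSO library of HGC27 (adjusted p = 0.081 and 0.0569), and none of the 7 passed with lines as the replicates. The line means of DAPK1, CASP8 and TNFRSF10C did not overlap between the classes. DAPK1 was lower and the others higher in all 3 CIMP+ lines. The share of all genes with such a split was not computed, so the split is a description only. Single DMSO libraries of TNFRSF10C did overlap, with 3.58 in SNU16 against 3.17 in AGS. Over the 10 pairs of untreated lines, 48 of 100 comparisons differed, against 40.4% for all genes, from 9 of 10 pairs for PYCARD and 8 for DAPK1 to none for CASP1.

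The same contrast was made between the 2 EBV+ and the 3 EBV- lines. No gene of the 10 had a larger response in EBV+ lines (background 10.5%) and 2 had a smaller one (9.17%), 1 of them by more than 2 (0.658%). The gene past 2 was PYCARD, which was listed at 0 in DMSO in AGS and HGC27. The size of its difference therefore depends on the added count of 1. It was not past 2 in every fit that left out a library. PYCARD differed with an adjusted p of 4.44e-05, though its calls in single lines did not divide by EBV. It rose in AGS and HGC27 from 0 and in the EBV+ line YCCEL1 from a low level. It was not called in SNU719 or in the EBV- line SNU16. BCL2 differed by -1.03 (standard error 0.324, adjusted p = 0.0383), a call that was lost on leaving out any 1 of 11 libraries (adjusted p up to 0.0953). The value for DAPK1, 1.32, did not pass (adjusted p = 0.0932). With lines as the replicates neither gene passed (adjusted p = 0.761 and 0.748). Since both EBV+ lines are also CIMP+, the virus and the phenotype share lines in these contrasts.

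The genes of the pathway lists whose level over the 10 groups was most like that of each gene were found by Pearson's r of mean log2 values, over 96 genes compared. TNFRSF10C was most like GSDMC (r = 0.95), CASP8 like TNFRSF21 (0.93), GSDME like NLRP6 (0.89), PYCARD like CIDEB (0.88), CIDEC like PINK1 (0.86) and BNIP3 like BCL2L10 (0.86). For HRK the most like was NLRP6 (0.82), for DAPK1 DFFA (0.74), for BCL2 CYCS (0.73) and for CASP1 NLRP6 (0.66). NLRP6 was near the floor, with means of 2.06 in DMSO and 3.18 in DCB in HGC27 and at most 0.81 in the other groups. The 10 points share lines and libraries, and each r is the highest of 96, so the values are descriptions only.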

How the data were processed

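RNA of 5 gastric cancer cell lines, with 10 groups of 2 libraries, was used. The genes and gene lists were chosen with earlier results of these data known, and all 10 genes are named. From each pathway list, up to 2 other genes with the smallest adjusted p over the 5 lines were named in each direction, besides close paralogs. Single genes of 1 list are not reported here. The text of the study names MKN74 in places where the labels name HGC27, the name used here.

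The authors deposited values for 60232 genes in 20 libraries, which are a signal in normalized estimated counts, not whole counts. The submitters' processing notes name the aligner STAR (2.5.2b), the counter featureCounts (1.5.1), the build GRCh37 and DESeq2 (1.14.1), with poly(A) libraries that do not mark the strand, while the study's methods describe stranded 3′ libraries and GRCh38. Coordinates of 7 of the 10 genes equal those of GENCODE v44 on GRCh38, the build given here. Per library, 37.3% to 42.5% of values below 300 were whole multiples (within 0.02) of the commonest low value, which was taken as that of 1 read. The rest were not, so no count model was used. No whole reads could be recovered.

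Genes with a sum above 10 were tested (27350; 20976 were at 0 in every library) with limma 3.58.1 (lmFit, eBayes with trend) on log2(value + 1) in R 4.3.3 with data.table (1.17.8). On this scale, changes of genes with low values come out too small. Single lines and differences came from a fit of 10 groups, and the effect over the 5 lines from a fit with a term for the line. Tests were two-sided, with Benjamini-Hochberg adjustment over all genes tested. Means are over 2 libraries, and limma gave the standard errors. No fold is given where a group was listed at 0. The scripts were tested on simulated data. Alternatives covered the pseudocount, filter, scaling, trend, replicate block, the samples in the fit, lines as replicates and leaving out each library. Promoter windows came from RefSeq on GRCh38.p14. Python 3.11.15 with matplotlib 3.10.9 made the figures.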

Additional observations from a re-analysis of the deposited data

Results flagged for a closer look

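The response to DCB differed between classes of lines for 5 results, each by limma's test of the difference itself with adjustment over all genes. Between CIMP+ and CIMP- lines these were DAPK1 (larger in CIMP+ lines by 3.24 on the log2 scale, adjusted p = 0.000472), BNIP3 (adjusted p = 0.00282) and TNFRSF10C (larger by 2.52, adjusted p = 0.0128). Between EBV+ and EBV- lines they were PYCARD (smaller in EBV+ lines, adjusted p = 4.44e-05) and BCL2 (-1.03, adjusted p = 0.0383). No difference is printed for BNIP3 and PYCARD, because at least 1 group was listed at 0. The 2 libraries of each line stood as replicates in these tests, and with 1 value per line none of the 5 passed. What sets the lines apart was not tested.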

How the results depend on the processing

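Of the 720 values of single genes under the 9 settings other than leaving out a library, 686 stayed on the same side of the threshold with the same direction, 29 were no longer past it and 5 came past it. No called value changed direction under any setting. Values that were not called changed sign 4 times under these settings and 44 times when a library was left out (CASP8 in AGS among them), so the sign of a value that was not called is a description only. Taking lines as replicates reduced the count of genes that changed over the 5 lines from 6 to 1, the CIMP difference from 3 to 0, the EBV difference from 2 to 0 and the untreated CIMP difference from 7 to 0. The fit of 1 line alone gave 2 genes in YCCEL1, 0 in SNU16 and 1 in HGC27, against 5, 1 and 3. Leaving out each library in turn, the count ran from 3 to 5 in YCCEL1, 0 to 1 in SNU16 and 1 to 3 for the EBV difference. The cause of these moves was not tested. Each of these fits also held fewer samples or values.

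The groups share replicate numbers, and the labels do not say whether same-numbered libraries were paired. Deviations of same-numbered DMSO and DCB libraries correlated at -0.0191 to 0.0148. No shared shift was seen, which cannot settle whether they were handled together. With the replicate block, BCL2 in YCCEL1 was lost (adjusted p = 0.0613) and DAPK1 came past the threshold for the EBV difference (adjusted p = 0.0252), and the counts of genes were 4 in YCCEL1 and 3 for the EBV difference. BCL2 in YCCEL1 was also lost with an added count of 0.5 (adjusted p = 0.059), without the filter (0.062) and without the trend (0.0537). An added count of 5 brought CIDEC past the threshold for the EBV difference (adjusted p = 0.0325) and HRK for the untreated CIMP difference (adjusted p = 0.00227). Without the first DCB library of AGS, CASP8 was called in AGS, and for the EBV difference (adjusted p = 0.0492). Values near 1 rest on about 1 read, and how depth bears on the calls was not tested.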
